A study of Mus musculus with 25 samples.

Results

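The 10 genes described here encode H3K9 demethylases: *Kdm3a*, *Kdm3b*, *Jmjd1c*, *Kdm4a*, *Kdm4b*, *Kdm4c*, *Kdm4d*, *Kdm7a*, *Phf2* and *Phf8*. They were taken by symbol, through their Ensembl identifiers, from a table of 55375 genes. Reads were counted in 25 RNA-seq libraries of mouse late two-cell embryos in 11 groups, each library being made from the polyadenylated RNA of a pool of 5 to 10 embryos collected 28 to 29 h after insemination or activation. The study asked how the removal of H3K9 methylation changed embryos made by somatic cell nuclear transfer (SCNT), in which the nucleus of a somatic cell is placed in an oocyte without its own chromosomes.

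All embryos were wildtype. IVF embryos (4 libraries) came from C57BL/6N oocytes of females aged 4 to 20 weeks by the labels (the study's methods give a narrower age) and from DBA2 sperm. SCNT embryos came from BDF1 oocytes and the nuclei of BDF1 female cumulus cells, the somatic cells around the oocyte. Oocyte strain and the mix of sexes therefore differ between IVF and SCNT embryos as well, and the effects of these cannot be told apart. Control SCNT embryos (2 libraries) were activated in cytochalasin B, which blocks actin polymerization, as were the embryos injected with *Kdm3a* mRNA (SCNT-*Kdm3a*, 2 libraries) or *Kdm4d* mRNA (SCNT-*Kdm4d*, 2 libraries). These received 10 pL of 1500 ng/µL mRNA at 5 to 6 h after activation. The other SCNT embryos were made with latrunculin A (LatA) in place of cytochalasin B. They were left untreated (LatA control, 2 libraries) or received the histone deacetylase inhibitor trichostatin A (TSA, 25 nM for 8 h, 2 libraries), the G9a inhibitor R701 (1 µM for 24 h, 3 libraries) or the G9a inhibitor A366 (2 libraries). TSA was also combined with R701, A366 or UNC0638 (2 libraries each), and UNC0638 alone was not analysed here. G9a is a methyltransferase that places H3K9me1 and H3K9me2.

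Methylation of lysine 9 on histone H3 marks silent chromatin, and enzymes with a Jumonji domain are among those that take it off. KDM3 enzymes remove the mono- and dimethyl marks, KDM4 enzymes remove the di- and trimethyl marks, and KDM7A, PHF2 and PHF8 carry a PHD finger beside the Jumonji domain and act on lower methylation states. In an early embryo their transcripts are a mix of those stored in the oocyte and those of the newly activated genome, and total RNA counts do not separate the sources.

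A library held 6662727 to 21188688 reads on genes (median 13994840). All 8 markers of two-cell embryos, among them *Zscan4d* and *Zfp352*, had reads in every library, as had all 8 markers of stored oocyte RNA. The summed level of the oocyte markers was 2742 to 3503 transcripts-per-million (TPM) in IVF libraries, 1910 to 2346 in control SCNT libraries, 1988 to 2007 in LatA control libraries and 3350 to 4395 in R701 libraries. The 12 markers of cumulus cells summed to 42.5 to 121 TPM over all libraries, mostly through *Amhr2* and *Tnfaip6*. The sum was 43.2 to 64.8 TPM in IVF libraries and highest with TSA, at 88.1 to 121 TPM. *Amhr2*, *Tnfaip6*, *Star* and *Col4a1* had reads in every library. *Ptx3* and *Inha* had 0 reads in 22 libraries each, and the rest had 0 reads in 5 to 15 libraries. In pooled embryos, fewer cells of a kind and less RNA per cell cannot be told apart.

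Levels between genes were compared as TPM, a count per gene length, computed over autosomal genes. Averaged over the groups without mRNA of the same gene, *Kdm7a* was the highest at 141 TPM, followed by *Kdm3a* at 93.4, *Kdm4c* at 71.7 and *Kdm4a* at 23.9. *Phf8*, *Kdm3b* and *Jmjd1c* had 14.8, 11.1 and 11.0 TPM. *Kdm4b*, *Kdm4d* and *Phf2* were the lowest at 3.47, 2.87 and 1.63 TPM. The ranges of neighbours in this order overlapped. *Kdm7a* libraries, for example, spanned 99.6 to 236 TPM and *Kdm3a* libraries 57.0 to 129.8 TPM. The lowest members also rested on few reads, down to 8 reads for *Phf2* and 9 for *Kdm4d* in a single library. *Phf2* had the widest spread between group means, with a ratio of 5.24 between the highest group (A366) and the lowest (TSA with UNC0638).

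**Figure D1:**
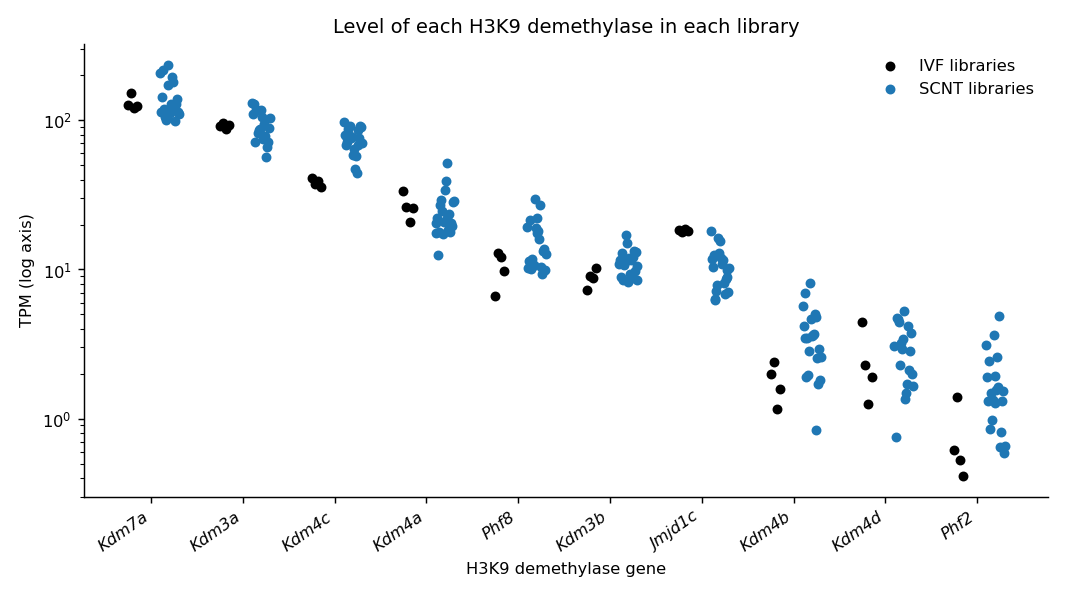
TPM of each H3K9 demethylase (log axis) in the 4 IVF libraries (black) and the SCNT libraries (blue), with the genes ordered by mean level. Libraries that hold injected mRNA of the same gene are left out, and *Kdm7a* lies between 99.6 and 236 TPM whereas *Phf2* lies between 0.41 and 4.85 TPM.

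Starts of transcription are shown for *Kdm4c* and *Kdm4a*, since the results below turn on these genes. RefSeq windows (GRCm38.p6) of the 250 bases before the start were at hand for 8 of the 10 genes. *Kdm4c* has a start at chromosome 4, chr4:74242247-74242496 on the plus strand, that coincides with the start of the counted gene and holds 0 CpG. Its other listed start lies 9382 bases further into the counted gene, at chr4:74251629-74251878, and holds 19 CpG. The window of *Kdm4a*, chr4:118180044-118180293 on the minus strand, holds 12 CpG. Capitals mark the CpG dinucleotides in the sequences, each written from 5′ to 3′ towards the start.
*Kdm4c*, upstream start: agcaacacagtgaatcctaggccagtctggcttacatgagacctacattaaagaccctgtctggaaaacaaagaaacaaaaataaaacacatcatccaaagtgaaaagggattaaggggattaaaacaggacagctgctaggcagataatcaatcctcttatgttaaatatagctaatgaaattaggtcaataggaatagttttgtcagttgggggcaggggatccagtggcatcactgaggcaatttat
*Kdm4c*, downstream start: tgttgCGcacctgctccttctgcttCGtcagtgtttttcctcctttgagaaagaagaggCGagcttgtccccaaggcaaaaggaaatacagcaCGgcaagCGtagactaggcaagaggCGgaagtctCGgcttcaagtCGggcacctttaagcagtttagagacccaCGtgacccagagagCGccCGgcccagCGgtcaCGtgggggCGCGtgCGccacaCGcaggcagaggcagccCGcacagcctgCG
*Kdm4a*: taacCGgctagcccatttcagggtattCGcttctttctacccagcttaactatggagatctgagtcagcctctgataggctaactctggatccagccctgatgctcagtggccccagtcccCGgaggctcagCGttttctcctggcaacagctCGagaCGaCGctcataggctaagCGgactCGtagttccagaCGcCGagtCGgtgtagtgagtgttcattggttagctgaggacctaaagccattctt

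The median of all 32851 RefSeq windows of this length was 6 CpG. The word CCAAT, searched on both strands, stood in the *Kdm4a* window and in neither *Kdm4c* window, and 33.8% of all windows hold it. The counts were made over whole genes, so they do not say which start was used.

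*Kdm3a* and *Kdm4d* were first examined in the embryos that received their mRNA. Values are counts-per-million (CPM) after TMM normalization, which were compared between libraries within a gene. *Kdm3a* (ENSMUSG00000053470.13, chromosome 6, 71588972 to 71632990, mm10) stood at 3465 and 3116 CPM in the SCNT-*Kdm3a* libraries and at 205 and 201 CPM in the control SCNT libraries. *Kdm4d* (ENSMUSG00000053914.9, chromosome 9, 14462548 to 14500482) stood at 18542 and 12539.8 CPM in the SCNT-*Kdm4d* libraries and at 2.52 and 0.72 CPM in the control SCNT libraries. Both labels were thus borne out by the injected gene. The deposited reads do not separate injected mRNA from the embryo's own, so these values were left out of every count below.

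*Kdm3a* outside its injected group had 180.3 to 189.9 CPM in IVF libraries and 109 to 266 CPM in SCNT libraries. The extremes were LatA control replicate 2 at 109 CPM and SCNT-*Kdm4d* replicate 2 at 266 CPM. The largest difference from IVF was that of SCNT-*Kdm4d* embryos, with a log2 fold change of 0.50 ± 0.19 (SE, adjusted p = 0.076 from edgeR). *Kdm4d* outside its injected group had 1.36 to 4.65 CPM in IVF libraries and 0.72 to 5.08 CPM in SCNT libraries, so these 2 ranges overlapped. Not all SCNT groups overlapped each other. Control SCNT (2.52 and 0.72 CPM) and A366 libraries (1.34 and 1.51 CPM) lay below the LatA control (4.29 and 3.72 CPM). In 9 groups each, edgeR called neither gene against IVF (1 group for *Kdm3a* and 0 for *Kdm4d* at an unadjusted p under 0.05, and 0 for both by DESeq2).

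Reads on copies of transposable elements inside these genes gave a second view, because the table counts them apart from exons and the injected mRNA holds no introns. None of the 17 copies within *Kdm3a* or the 20 within *Kdm4d* overlaps an exon. They are given as RPM, the reads on copies scaled by the library's reads on genes in the way of CPM. In *Kdm3a*, control SCNT libraries had 8.76 and 8.08 RPM, SCNT-*Kdm3a* libraries had 4.58 and 5.06, SCNT-*Kdm4d* libraries had 4.62 and 4.86, and IVF libraries had 1.80 to 2.91. Control libraries were thus the highest of these groups, and the groups injected with either mRNA overlapped each other. In *Kdm4d*, SCNT-*Kdm4d* libraries had 1.76 and 1.14 RPM, IVF libraries had 0.95 to 1.27 and control SCNT libraries had 3.39 and 3.20. All element copies together took 9.71% to 10.9% of the assigned reads in IVF libraries and 13.3% to 14.8% in control SCNT libraries. These reads carry no strand and numbered 7 to 97 per library in those groups, so they are given without a test. Copies at least 1 kb (1000 bases) from an exon numbered only 3 in *Kdm3a*, where the control SCNT mean was then 1.71 RPM in place of 8.42.

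**Figure D2:**
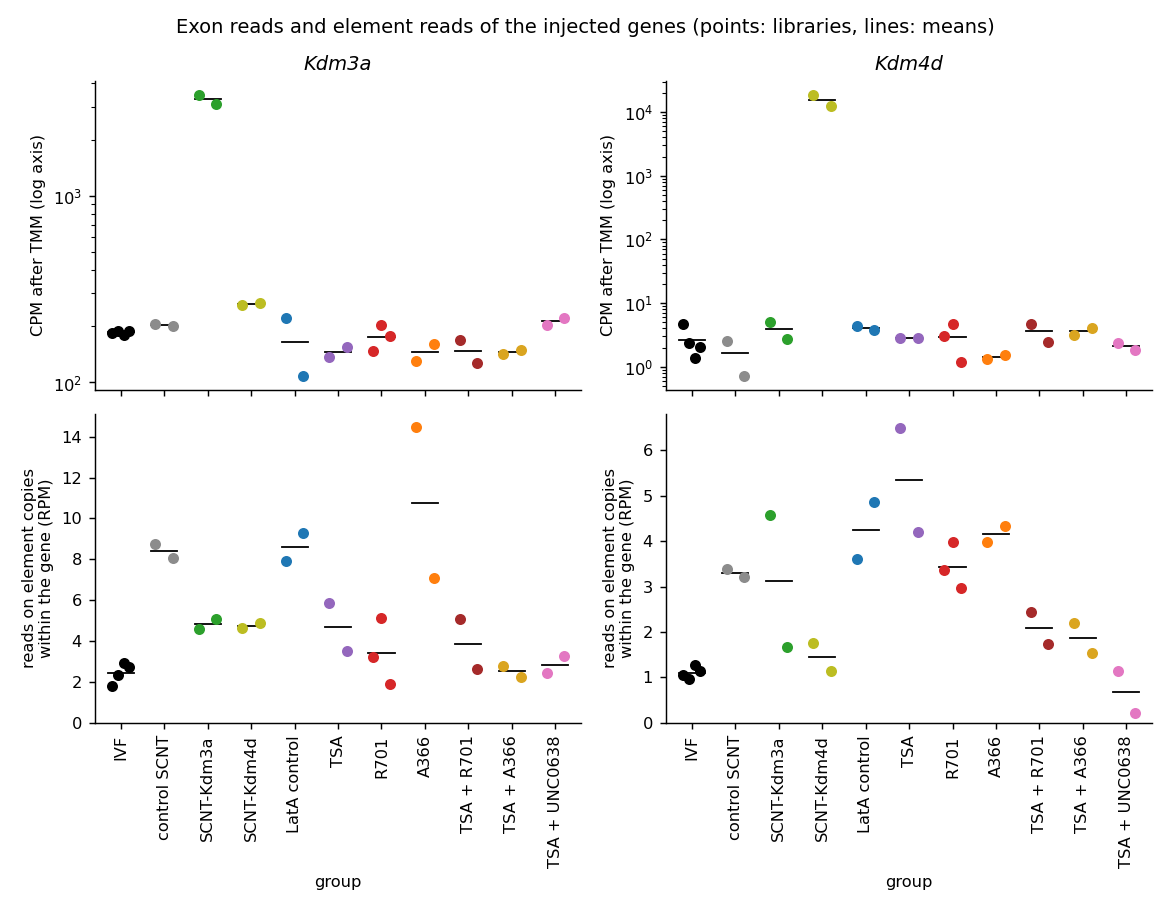
Upper panels, CPM after TMM (log axis) of *Kdm3a* and *Kdm4d* in each library (points) with the group mean (line). Lower panels, reads on element copies within the gene as RPM of reads on genes. The injected genes rise in the upper panels in the injected group alone, at 3465 and 3116 CPM for *Kdm3a* and at 18542 and 12539.8 CPM for *Kdm4d*, and show no such rise in the lower panels.

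The untreated SCNT embryos were then compared with IVF embryos. *Kdm4c* and *Kdm4b* were higher and *Kdm4a* was lower in both kinds of untreated SCNT embryo, *Phf2* was higher in control SCNT embryos and *Jmjd1c* was lower in LatA control embryos. The edgeR quasi-likelihood test was fitted to all 25 libraries and 25794 autosomal genes, with 1 coefficient per group. A gene was called at an adjusted p under 0.05 over all genes of a comparison. Of the 9 autosomal members, 4 were called in control SCNT embryos against 21.3% of all genes, and 4 in LatA control embryos against 21.6%. In control SCNT embryos 3 members were higher and 1 was lower, beside 10.8% and 10.4% of all genes, and in LatA control embryos 2 were higher and 2 lower, beside 11.6% and 9.99%. The members' shares rest on 9 genes each, and both comparisons share the 4 IVF libraries. The median log2 fold change of the members was 0.10 in control SCNT and 0.14 in LatA control embryos, beside 0.01 and 0.04 over all genes tested.

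*Kdm4c* (ENSMUSG00000028397.13, chromosome 4, 74242497 to 74405860 on the plus strand) removes H3K9me2 and H3K9me3, and an antisense gene, *A230083N12Rik*, overlaps it. *Kdm4c* had 86.8, 78.7, 86.2 and 77.8 CPM in the IVF libraries, 162 and 156 CPM in the control SCNT libraries, and 126 and 115 CPM in the LatA control libraries. No SCNT library of these groups fell within the IVF range. The log2 fold change was 0.95 ± 0.17 (SE, adjusted p = 0.000124 from edgeR) in control SCNT and 0.55 ± 0.17 (SE, adjusted p = 0.0182) in LatA control embryos. The call in control SCNT embryos held in all 14 alternatives of the analysis. That in LatA control embryos was lost without LatA control replicate 1 (0.49, adjusted p = 0.1) and in a fit of the compared libraries alone (0.53, adjusted p = 0.0625). Reads on the 160 element copies within *Kdm4c* came to 28.2 to 32.6 RPM of reads on genes in IVF libraries, 76.6 and 93.4 in control SCNT libraries and 78.4 and 94.8 in LatA control libraries. As RPM of all reads on elements, whose share was higher in both controls, the means were 269 in IVF, 525 in control SCNT and 547 in LatA control embryos.

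*Jmjd1c* (ENSMUSG00000037876.17, chromosome 10, 67096492 to 67256326 on the plus strand) belongs to the KDM3 family and overlaps *Reep3*. *Jmjd1c* had 63.3, 60.5, 67.2 and 64.0 CPM in the IVF libraries, 49.3 and 37.4 CPM in the control SCNT libraries, and 30.9 and 33.1 CPM in the LatA control libraries. Every one of these SCNT values lay below the IVF range. In TPM, control SCNT replicate 1 lay within it, at 18.1 against 17.8 to 18.8 in IVF libraries. The log2 fold change was -0.99 ± 0.21 (SE, adjusted p = 0.001 from edgeR) in LatA control embryos, and that call held in all 14 alternatives. In control SCNT embryos it was -0.56 ± 0.21 (SE, adjusted p = 0.054) and missed the threshold.

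*Kdm4a* (ENSMUSG00000033326.15, chromosome 4, 118136957 to 118180043 on the minus strand) encodes, like *Kdm4c*, an enzyme for H3K9me2 and H3K9me3. *Kdm4a* had 71.3, 54.2, 45.4 and 55.4 CPM in the IVF libraries, 29.2 and 39.9 CPM in the control SCNT libraries, and 40.2 and 20.2 CPM in the LatA control libraries. All of the SCNT values lay below the lowest IVF value. In TPM, LatA control replicate 1 had 22.0 and lay above the lowest IVF library at 20.8. The log2 fold change was -0.71 ± 0.26 (SE, adjusted p = 0.0493 from edgeR) in control SCNT and -0.90 ± 0.26 (SE, adjusted p = 0.0129) in LatA control embryos. The former call was lost without IVF replicate 1, 2 or 4 or either control SCNT replicate (-0.58, -0.73, -0.72, -0.51 and -0.95, adjusted p from 0.0587 to 0.366), with RLE factors (adjusted p = 0.053) and with the sex chromosomes included (adjusted p = 0.05003). The latter was lost without LatA control replicate 2 (-0.49, adjusted p = 0.29). The summed oocyte markers were also lower in both groups than in IVF, where 5 of the 7 markers tested were called lower in each. Of all genes, 10.4% were called lower in control SCNT and 9.99% in LatA control embryos. The part of the oocyte markers in the results for *Kdm4a* and *Jmjd1c* was not tested.

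*Kdm4b* (ENSMUSG00000024201.12, chromosome 17, 56326062 to 56402870 on the plus strand) and *Phf2* (ENSMUSG00000038025.8, chromosome 13, 48801750 to 48871119 on the minus strand) stood close to the floor of the measurement, with 21 to 141 reads of *Kdm4b* and 8 to 121 reads of *Phf2* in a library. *Kdm4b* had 2.14 to 4.23 CPM in the IVF libraries, 7.94 and 6.86 CPM in the control SCNT libraries, and 5.37 and 9.40 CPM in the LatA control libraries, with no overlap with IVF. The log2 fold change was 1.21 ± 0.41 (SE, adjusted p = 0.0359 from edgeR) in control SCNT and 1.20 ± 0.41 (SE, adjusted p = 0.0365) in LatA control embryos. The former call was lost without IVF replicate 3 or 4 or either control SCNT replicate (1.06, 1.16, 1.10 and 1.32), and the latter without IVF replicate 1, 3 or 4 or LatA control replicate 2 (1.25, 1.05, 1.15 and 0.75). The latter was also lost in a fit of the compared libraries alone (1.17, adjusted p = 0.0638 from edgeR). *Phf2* had 0.84 to 2.74 CPM in the IVF libraries, and 4.94 and 3.51 CPM in the control SCNT libraries (log2 fold change 1.49 ± 0.52, adjusted p = 0.0418 from edgeR). That call was lost without IVF replicate 1, 3 or 4 or either control SCNT replicate (1.43, 1.36, 1.29, 1.22 and 1.72). It was also lost without a filter on low counts and in a fit of the compared libraries alone (adjusted p = 0.0596 and 0.0543 from edgeR). *Phf2* was not called in LatA control embryos, at 2.28 and 3.72 CPM.

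*Kdm3b*, *Kdm3a*, *Kdm4d* and *Kdm7a* were not called in either control. *Kdm7a* (ENSMUSG00000042599.8, chromosome 6, 39136623 to 39206789 on the minus strand), the highest member, had 457 to 549 CPM in the IVF libraries, 597 and 382 CPM in the control SCNT libraries, and 458 and 607 CPM in the LatA control libraries. Its 95% interval of the log2 fold change was -0.32 to 0.35 in control SCNT and -0.20 to 0.47 in LatA control embryos. X-linked *Phf8* (ENSMUSG00000041229.15, 151520672 to 151633859 on the plus strand) was not tested against IVF, because IVF pools hold both sexes. It had 20.9 to 40.1 CPM in the IVF libraries and 29.6 to 77.4 CPM in the SCNT libraries, with overlap. The 2 controls themselves, which differ in the drug that blocks actin, gave 0 called members of 9 by edgeR (1 at an unadjusted p under 0.05, *Kdm4d*, and 0 by DESeq2), against 0.0116% of all genes.

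**Figure D3:**
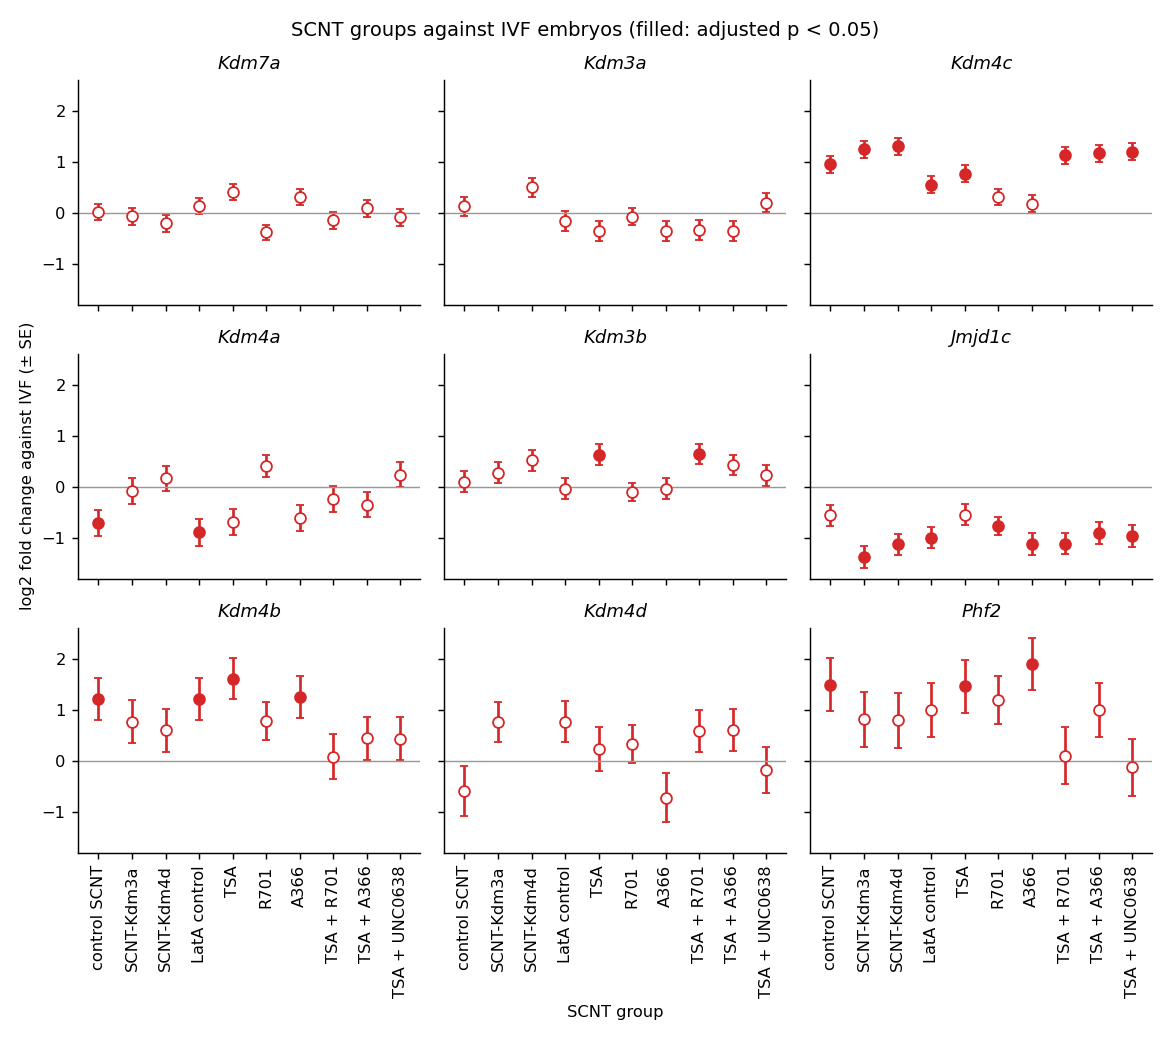
Log2 fold change (± SE) of the 9 autosomal H3K9 demethylases in each SCNT group against the 4 IVF libraries, with filled points for an adjusted p under 0.05 and injected genes left out of their own group. *Kdm4c* lies above 0 in all 10 groups and *Jmjd1c* below 0 in all 10, and the groups share the IVF libraries.

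The 8 treated SCNT groups were compared with the same IVF libraries. *Jmjd1c* was lower and *Kdm4c* higher in most of them. *Kdm4a* was called in 0 of 8 by edgeR (2 at an unadjusted p under 0.05 and 2 by DESeq2, TSA and A366). Its TSA libraries (30.2 and 39.3 CPM) and A366 libraries (40.7 and 33.3 CPM) all lay below the lowest IVF library at 45.4 CPM. Each other treated group had a library above that value. In TPM, A366 replicate 1 had 22.1 and lay above the lowest IVF library at 20.8. In SCNT-*Kdm3a* embryos 2 of 8 members were called against 19.3% of all genes, and in SCNT-*Kdm4d* embryos 2 of 8 against 14.5%. With TSA 4 of 9 were called against 21.7%, with R701 1 of 9 against 19.3%, and with A366 3 of 9 against 22.1%. With TSA and R701 3 of 9 were called against 18.5%, with TSA and A366 2 of 9 against 16.3%, and with TSA and UNC0638 2 of 9 against 15.0%. Each of these shares is that of 8 or 9 genes.

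*Jmjd1c* lay between 23.8 and 49.3 CPM over all 21 SCNT libraries, and none reached the lowest IVF library at 60.5 CPM. The separation was not complete in TPM, where control SCNT replicate 1 had 18.1 against 17.8 to 18.8 in IVF libraries. With both controls included, it was called lower in 8 of 10 SCNT groups by edgeR, in all 10 at an unadjusted p under 0.05, and in all 10 by DESeq2. The lowest libraries were A366 replicate 2 at 23.8 CPM and the SCNT-*Kdm3a* libraries at 24.1 and 24.7 CPM. The log2 fold change in SCNT-*Kdm3a* embryos was -1.38 ± 0.22 (SE, adjusted p = 3.51e-05 from edgeR). With TSA it was -0.55 ± 0.21 (SE, adjusted p = 0.0551), the weakest of the 10. The call with TSA and A366 was lost without that group's replicate 1 (-0.85, adjusted p = 0.0626), as was the call with TSA and UNC0638 (-0.76, adjusted p = 0.096). In the R701 libraries *Jmjd1c* had 45.2, 35.5 and 31.9 CPM (log2 fold change -0.76 ± 0.18, adjusted p = 0.00291). Of the 7 oocyte markers tested, 3 to 5 were called lower than in IVF in each treated group other than R701. In those groups 14.5% to 22.1% of all genes were called in either direction. With R701 2 of the 7 were called lower, beside 19.3% of all genes called. The part of the oocyte markers in these results was not tested.

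*Kdm4c* was called higher than in IVF in 8 of 10 SCNT groups, with both controls included. Its log2 fold change was 1.25 ± 0.16 (SE, adjusted p = 3.89e-06 from edgeR) in SCNT-*Kdm3a* and 1.30 ± 0.16 (SE, adjusted p = 3.59e-06) in SCNT-*Kdm4d* embryos. The SCNT-*Kdm4d* libraries had 188 and 219 CPM, and the TSA libraries had 133 and 147 CPM. The 3 groups with TSA and a G9a inhibitor lay between 160.4 and 219 CPM and had log2 fold changes of 1.13, 1.17 and 1.20. With R701 alone (104, 117 and 85.1 CPM) and A366 alone (107 and 80.1 CPM) the values overlapped those of IVF, and neither group was called (0.31, adjusted p = 0.161, and 0.18, adjusted p = 0.482). Their TPM did not overlap those of IVF, at 47.5 to 63.8 with R701 and 44.2 to 57.6 with A366 against 36.0 to 40.8.

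*Kdm3b* (ENSMUSG00000038773.11, chromosome 18, 34777047 to 34838660 on the plus strand), a KDM3 enzyme, was called higher with TSA (62.8 and 60.1 CPM) and with TSA and R701 (58.4 and 66.1 CPM) than in IVF (32.4 to 46.1 CPM), and these groups did not overlap. The log2 fold changes were 0.63 ± 0.20 (SE, adjusted p = 0.0249 from edgeR) and 0.65 ± 0.20 (SE, adjusted p = 0.0235). Both calls were lost without IVF replicate 1 (0.55 and 0.57) and without either replicate of the treated group (0.60 and 0.63 with TSA, 0.73 and 0.56 with TSA and R701). *Kdm4b* was called with TSA (log2 fold change 1.61 ± 0.41, adjusted p = 0.00482) and with A366 (1.25 ± 0.41, adjusted p = 0.029). Its call with TSA was lost without TSA replicate 1 (1.24), and that with A366 without IVF replicate 3 or 4 or either A366 replicate (1.09, 1.20, 1.20 and 1.24). *Phf2* was called with TSA (1.46 ± 0.52, adjusted p = 0.0441), although TSA replicate 2 at 2.32 CPM lay within the IVF range, and with A366 (1.90 ± 0.51, adjusted p = 0.00812). The former call was lost without IVF replicate 1, 3 or 4 or TSA replicate 1 (1.40, 1.34, 1.26 and 0.63), and the latter without A366 replicate 2 (0.87), which had 8.30 CPM against 2.85 CPM in replicate 1. The call of *Phf2* with TSA was also lost with RLE factors and without a filter on low counts (adjusted p = 0.0513 and 0.0641 from edgeR). So it was in a fit of the compared libraries alone (adjusted p = 0.0606).

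The effect of the injected mRNA on the other demethylases was compared with control SCNT embryos. *Jmjd1c* was lower in SCNT-*Kdm3a* embryos, and no other member was called with either mRNA. In SCNT-*Kdm3a* embryos 1 of 8 members was called against 6.14% of all genes. *Jmjd1c* had 24.1 and 24.7 CPM there and 49.3 and 37.4 CPM in control SCNT, with a log2 fold change of -0.83 ± 0.24 (SE, adjusted p = 0.0345 from edgeR). That call was lost without control SCNT replicate 1 (-0.64, adjusted p = 0.284), without SCNT-*Kdm3a* replicate 1 or 2 (-0.81 and -0.85, adjusted p = 0.145 and 0.15), without a filter on low counts (adjusted p = 0.06), in a fit of the compared libraries alone (adjusted p = 0.103), and with the LatA control (-0.39, adjusted p = 0.325) or both controls (-0.61, adjusted p = 0.0574) as the reference. In SCNT-*Kdm4d* embryos 0 of 8 members were called by edgeR (2 at an unadjusted p under 0.05 and 1 by DESeq2, *Jmjd1c*), against 5.15% of all genes. *Kdm4a* there had 68.4 and 58.7 CPM, above both control values of 29.2 and 39.9 CPM, with a log2 fold change of 0.88 ± 0.29 (SE, adjusted p = 0.0759). It was called against the LatA control (1.07, adjusted p = 0.0237), against both controls (0.97, adjusted p = 0.00959), without a filter on low counts (adjusted p = 0.0271) and in a fit of the compared libraries alone (0.84, adjusted p = 0.037). *Kdm4c* was not called in SCNT-*Kdm3a* (0.30, adjusted p = 0.411) or SCNT-*Kdm4d* embryos (0.35, adjusted p = 0.339). Against the LatA control it was called in both (0.70, adjusted p = 0.0232, and 0.75, adjusted p = 0.0196), and against both controls in SCNT-*Kdm4d* (0.55, adjusted p = 0.0344).

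Between the embryos injected with either mRNA, edgeR called 0 of 7 members that were injected in neither group (0 at an unadjusted p under 0.05 and 0 by DESeq2), against 0.345% of all genes. For *Jmjd1c* the 95% interval of the log2 fold change was -0.23 to 0.74, and for *Kdm4c* it was -0.35 to 0.46. With 2 libraries per group, these intervals give the changes compatible with the data and are not a limit of detection.

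TSA and the G9a inhibitors were compared with the LatA control. *Kdm4a* was higher with R701 and with TSA and UNC0638, and *Kdm4c* was higher with TSA and A366 and with TSA and UNC0638. With R701 1 of 9 members was called against 5.47% of all genes, with TSA and A366 1 of 9 against 9.21%, and with TSA and UNC0638 2 of 9 against 9.03%. By edgeR 0 of 9 were called with TSA (1 at an unadjusted p under 0.05 and 0 by DESeq2), against 0.372% of all genes. With A366 0 of 9 were called by edgeR (1 at an unadjusted p under 0.05 and 0 by DESeq2), against 0.132%. With TSA and R701 0 of 9 were called by edgeR (4 at an unadjusted p under 0.05, beside 23.8% of all genes at that threshold, and 2 by DESeq2, *Kdm3b* and *Kdm4c*), against 9.65% of all genes called. All 6 comparisons share the 2 LatA control libraries. The median of all genes itself lay at -0.11 with TSA and R701 and at -0.12 with TSA and A366, beside -0.17 and 0.00 over the members.

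*Kdm4a* had 60.7, 71.7 and 92.1 CPM with R701, and 40.2 and 20.2 CPM in the LatA control, without overlap. The log2 fold change was 1.30 ± 0.27 (SE, adjusted p = 0.0051 from edgeR). With TSA and UNC0638 it had 67.8 and 65.3 CPM and a log2 fold change of 1.13 ± 0.29 (SE, adjusted p = 0.0125). Both calls rested on LatA control replicate 2, without which the log2 fold changes were 0.90 (adjusted p = 0.168) and 0.73 (adjusted p = 0.208), and the latter call was also lost without that group's replicate 1 (1.11, adjusted p = 0.0838). Both were lost as well in a fit of the compared libraries alone. *Kdm4a* had 53.7 and 41.9 CPM with TSA and R701, 45.8 and 42.9 CPM with TSA and A366, 30.2 and 39.3 CPM with TSA, and 40.7 and 33.3 CPM with A366. These 4 groups were not called, with log2 fold changes of 0.66, 0.55, 0.20 and 0.28. The summed oocyte markers were also higher with R701 than in the LatA control. There 3 of the 7 markers tested were called higher, beside 5.47% of all genes called, and their part in the result was not tested. With TSA and UNC0638 the same sum was 1403 to 1934 TPM, and 1 of the 7 was called higher, beside 9.03% of all genes called. The two-cell markers of that group summed to 3131 to 3579 TPM against 1207 to 1344 TPM in the LatA control, with 8 of 8 called higher, and their part in the result was not tested.

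**Figure D4:**
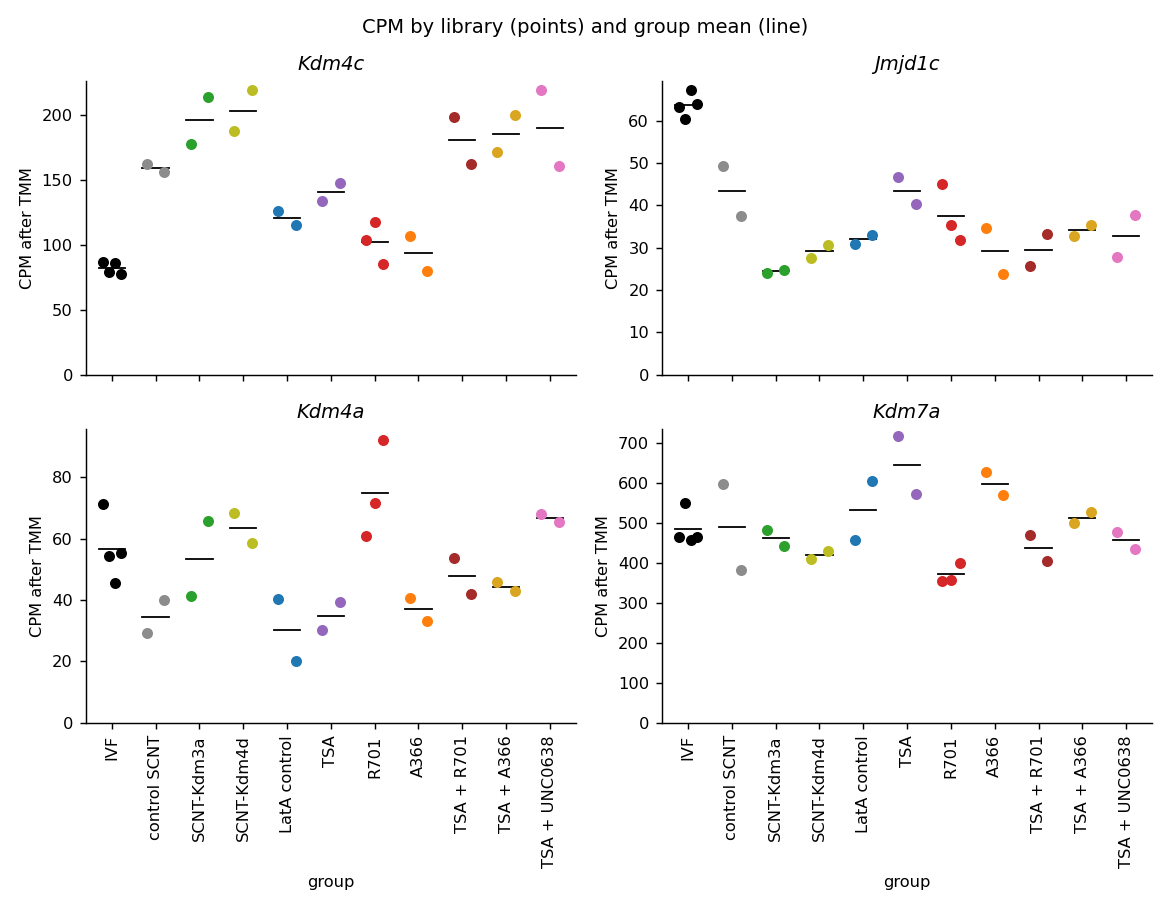
CPM after TMM of *Kdm4c*, *Jmjd1c*, *Kdm4a* and *Kdm7a* in each library (points) with the group mean (line), from 0 upwards. *Jmjd1c* stays at or under 49.3 CPM in every SCNT library and above 60 CPM in every IVF library, and *Kdm4a* spans 60.7 to 92.1 CPM with R701 against 20.2 and 40.2 CPM in the LatA control.

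*Kdm4c* had 171 and 199.7 CPM with TSA and A366, and 219 and 160.4 CPM with TSA and UNC0638, beside 126 and 115 CPM in the LatA control. The log2 fold changes were 0.62 ± 0.20 (SE, adjusted p = 0.0455 from edgeR) and 0.65 ± 0.20 (SE, adjusted p = 0.0355). The former call was lost without any 1 of the 4 libraries compared (0.50 to 0.73), and the latter without LatA control replicate 2 (0.59) or its own replicate 1 (0.41). Both calls were also lost with RLE factors (adjusted p = 0.0682 and 0.0562), in a fit of the compared libraries alone (0.264 and 0.35), and with the control SCNT libraries (log2 fold changes of 0.22 and 0.25) or both controls (0.42 and 0.45) as the reference. The call with TSA and A366 was lost without a filter on low counts as well (adjusted p = 0.0684 from edgeR). With TSA and R701 *Kdm4c* had 198 and 162 CPM and a log2 fold change of 0.58 ± 0.20 (SE, adjusted p = 0.0618). As TPM, *Kdm4c* with TSA and A366 (75.8 and 90.9) lay above the LatA control (68.5 and 71.3). Its TPM with TSA and UNC0638 (90.3 and 70.7) and with TSA and R701 (86.7 and 68.6) overlapped that control.

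Whether TSA and a G9a inhibitor together departed from the sum of their separate log2 changes was tested as an interaction. For R701, 0 of 9 members were called by edgeR (3 at an unadjusted p under 0.05, beside 14.9% of all genes, and 0 by DESeq2), against 2.30% of all genes called. For A366, 0 of 9 were called by edgeR (2 at an unadjusted p under 0.05, beside 16.7% of all genes, and 1 by DESeq2, *Kdm4c*), against 1.88%. *Kdm4a* with R701 had an interaction of -0.84 ± 0.39 on the log2 scale (SE, adjusted p = 0.303 from edgeR). *Phf8* was fitted with all 25 libraries, IVF included, and the genes of all chromosomes, and was tested among SCNT groups alone. It was called in none of 16 comparisons by edgeR (3 at an unadjusted p under 0.05 and 1 by DESeq2). Its interaction with R701 was -1.27 ± 0.41 (SE, adjusted p = 0.104), from 58.8, 47.8 and 48.2 CPM with R701, 77.4 and 53.7 CPM with TSA, and 35.3 and 32.5 CPM with both. Without LatA control replicate 2 it was called for R701 (-1.68, adjusted p = 0.0271) and for A366 (-1.47, adjusted p = 0.0354).

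The G9a inhibitors were compared with each other at the same dose and time in 4 pairs, A366 with R701 alone and all 3 with TSA. *Kdm4a* was lower and *Kdm7a* higher with A366 than with R701, which made 2 of 9 members against 12.9% of all genes. *Kdm4a* had 40.7 and 33.3 CPM with A366 against 60.7, 71.7 and 92.1 CPM with R701 (log2 fold change -1.02 ± 0.27, adjusted p = 0.0109 from edgeR, 0.0321 when adjusted over all genes of the 4 pairs together). *Kdm7a* had 629 and 570 CPM with A366 against 356, 358 and 400.4 CPM with R701 (0.69 ± 0.17, adjusted p = 0.0065, 0.0194 over all genes of the 4 pairs). Neither pair of groups overlapped. The *Kdm4a* call was lost without R701 replicate 3 (-0.84, adjusted p = 0.0633) or A366 replicate 2 (-0.94, adjusted p = 0.143), and the *Kdm7a* call without A366 replicate 1 (0.60, adjusted p = 0.0823) or 2 (0.70, adjusted p = 0.0522). For *Jmjd1c* the 95% interval was -0.80 to 0.08 and for *Kdm4c* it was -0.50 to 0.24, and neither interval reached a 2-fold change. With 2 and 3 libraries, these intervals too give the changes compatible with the data and are not a limit of detection.

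In the presence of TSA, A366 and R701 gave 0 called members of 9 by edgeR (0 at an unadjusted p under 0.05 and 0 by DESeq2), against 0.00% of all genes. UNC0638 and R701 gave 0 of 9 (1 at an unadjusted p under 0.05 and 0 by DESeq2), against 1.21%. UNC0638 and A366 gave 0 of 9 (1 at an unadjusted p under 0.05 and 0 by DESeq2), against 1.00%. In both of the latter the member at an unadjusted p under 0.05 was *Kdm3a*, with 203 and 223 CPM with TSA and UNC0638, 168 and 127 CPM with TSA and R701, and 142 and 149 CPM with TSA and A366. The log2 fold changes were 0.53 ± 0.22 (SE, adjusted p = 0.343) and 0.55 ± 0.22 (SE, adjusted p = 0.359). For *Kdm4a* the 95% interval between A366 and R701 with TSA was -0.69 to 0.48, beside -1.57 to -0.47 without TSA. The intervals overlap, and the difference between these pairs was not tested.

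The methyltransferases that place the mark, with their partners, were counted beside the demethylases. Of 16 tested from a list of 18, 5 were called in control SCNT against IVF (2 higher and 3 lower, beside 21.3% of all genes called) and 6 in LatA control embryos (2 higher and 4 lower, beside 21.6%). *Ehmt2*, which encodes G9a, had 31.5 ± 2.92 CPM (SD, n = 2) in control SCNT and 30.6 ± 0.24 CPM (SD, n = 2) in LatA control embryos, and 10.1 ± 0.926 CPM (SD, n = 4) in IVF embryos. Its CPM were thus 3.11-fold and 3.02-fold higher (adjusted p = 2e-06 and 2.97e-06 from edgeR). *Setdb2*, of the SETDB family, fell by 1.84 and 1.31 on the log2 scale (adjusted p = 1.66e-05 and 0.000606). Against the LatA control, 1 of the 16 was called with R701 (beside 5.47% of all genes), 2 with TSA and R701 (9.65%), 1 with TSA and A366 (9.21%), 2 with TSA and UNC0638 (9.03%), and 0 with TSA or A366 alone by edgeR (1 at an unadjusted p under 0.05 in each).

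Of a list of 16 other lysine demethylases and related oxygenases, 12 were tested. In control SCNT embryos 5 were called against IVF (1 higher and 4 lower, beside 21.3% of all genes), as were 5 in LatA control embryos (2 higher and 3 lower, beside 21.6%). Against the LatA control, 2 were called with R701, beside 5.47% of all genes. *Riox1* had 11.8 ± 2.40 CPM (SD, n = 3) with R701 against 26.8 ± 14.4 CPM (SD, n = 2) in the LatA control (log2 fold change -1.17, adjusted p = 0.0115 from edgeR). *Kdm6b*, which encodes an enzyme for H3K27me3, had 15.8 ± 1.54 CPM (SD, n = 3) against 32.0 ± 18.1 CPM (SD, n = 2; -1.01, adjusted p = 0.0372). The 2 control libraries lay far apart for both genes, and neither call was examined without one of them. *Riox2* had 174 ± 4.87 CPM (SD, n = 2) with TSA and R701 against 62.2 ± 24.0 CPM (SD, n = 2) in the LatA control (log2 fold change 1.48 ± 0.28, adjusted p = 0.00106). It was the 1 gene of the list called there, beside 9.65% of all genes, and TSA with A366 gave 1 (9.21%), TSA with UNC0638 gave 2 (9.03%), and TSA or A366 alone gave 0 by edgeR (4 and 3 at an unadjusted p under 0.05).

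For the 3 demethylases with the widest spread between group means, the genes with the most similar profile were found among 17994 genes by Pearson's r of log2(TPM + 1) over libraries. *Phf2* was most like *Samd4b* (r = 0.86, 25 libraries), *Kdm4b* was most like *Tcf7l1* (r = 0.89, 25 libraries) and *Kdm4d* was most like *Cdadc1* (r = 0.69, 23 libraries without the injected group). Within the family, *Phf2*, *Phf8* and *Kdm4b* moved together over the 21 libraries without injected mRNA (r = 0.82 for *Phf2* and *Kdm4b*, 0.84 for *Phf2* and *Phf8*, and 0.74 for *Phf8* and *Kdm4b*), and *Kdm7a* came next to them (r = 0.74 with *Kdm4b*, 0.68 with *Phf2* and 0.67 with *Phf8*). These libraries share groups and depth, and *Phf2* rests on few reads, so the values are a description.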

How the data were processed

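Per the labels and the study's methods, the authors used Trimmomatic and STAR on paired reads, with mm10 as the genome, and made the deposited read counts with featureCounts 1.6.2, without strand and without reads on several features. The table holds whole-number counts for 55375 genes and, apart from them, for 1755056 copies of transposable elements. Any read on exons shared by a gene and an overlapping antisense gene was therefore left out of both counts. The strand of the other reads is not known, which concerns *Kdm4c* and *Kdm7a* among others.

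From these counts, CPM with TMM factors (0.883 to 1.16) and TPM with GENCODE M21 exon lengths were computed here with Python 3.11.15 and R 4.3.3. The factors were 0.936 to 0.968 in IVF libraries and 1.06 to 1.16 in untreated SCNT and with TSA, R701 or A366 alone. They were 0.883 to 0.959 in the injected groups and with TSA and a G9a inhibitor. The order of groups can therefore differ between CPM and TPM. Genes that averaged 1 read or more per library were tested with edgeR 4.0.16 (glmQLFit, glmQLFTest), with Benjamini-Hochberg adjustment over the genes of each comparison. The fit took all 25 libraries, so that groups of 2 shared an estimate of the spread (common dispersion 0.136). *Phf8* was fitted with 26850 genes of all chromosomes. DESeq2 1.42.0, RLE factors, other filters, other controls, a fit of the compared libraries alone, a replicate block and the omission of single libraries were alternatives. The scripts were tested on simulated data.

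Replicates are separate pools of embryos. All 18 replicate pairs within groups of 2 to 4 differed by more than counting noise (chi-square per gene 8.13 to 69.0), and p-values measure the spread between these pools. The members and gene lists were chosen with earlier results of these data known. All 10 members were named, and a gene of the other lists was named where it passed an adjusted p under 0.05 with a fold above 2 in both untreated controls against IVF, or with R701, TSA or both against the LatA control, up to 3 per list and question.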

Additional observations from a re-analysis of the deposited data

Results flagged for a closer look

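*Kdm7a* in the IVF group had 465, 549, 457 and 466 CPM, and replicate 2 stood apart from the other libraries. Its gap to the nearest of them was 0.898 of the group's whole range, above the critical value of 0.829 for 4 samples. Such a test marks about 1 in 20 groups by chance, and it was made for 10 genes in 1 group of 4. *Kdm7a* was called against IVF in 0 of 10 SCNT groups by edgeR (2 at an unadjusted p under 0.05 and 1 by DESeq2, R701).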

How the results depend on the processing

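For 34 called results of single genes, 387 of 476 alternatives kept the direction and the side of the threshold, 89 kept the direction but lost the call, and 13 results held in every alternative run. These were 7 of *Kdm4c* and 6 of *Jmjd1c* against IVF. Of the results not called, *Kdm4a* against the LatA control changed sign with TSA without LatA control replicate 2 (-0.21) or TSA replicate 2 (-0.02), and with A366 without LatA control replicate 2 (-0.12). Their ranges over libraries left out reached 0.78 and 0.87. The calls among members in untreated SCNT against IVF numbered 8, with 3 above a 2-fold change and 4 to 9 when a single library was left out. The calls in treated SCNT against IVF numbered 19 (16 to 21 with a library left out). The injections gave 1 call against control SCNT (0 to 1 with a library left out), 0 above a 2-fold change, 2 without a filter on low counts, 3 against the LatA control, 2 against both controls and 2 by DESeq2. TSA and the G9a inhibitors gave 4 calls against the LatA control, 2 above a 2-fold change, 2 with RLE factors, 0 in a fit of the compared libraries alone and 7 by DESeq2. Without LatA control replicate 1 that count was 8 and without replicate 2 it was 0, the range over libraries left out. The interactions gave 0 calls, also with each library left out, but 1 without a filter, 2 against the other untreated control, 1 against both controls and 1 by DESeq2. Between G9a inhibitors there were 2 calls (0 to 2 with a library left out) and 1 above a 2-fold change. Between the untreated controls there were 0 calls (0 to 1 with a library left out) and 1 without a filter. *Phf8* gave 0 calls, 1 without a filter, 1 by DESeq2 and 0 to 2 with a library left out. DESeq2 also called more of all genes than edgeR did in every comparison with IVF, control SCNT or the LatA control. The shares of all genes under the other alternatives, and with a library left out, are not given. Whether the counts moved more for the members than for all genes was not tested. The cause of these differences was not tested.

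The replicate numbers did not pair the samples. The correlation of the deviations of equally numbered libraries lay between -0.138 and 0.0616 over 55 pairs of groups. With the replicate block the counts were 3 in place of 8 in untreated SCNT against IVF. They were 0 in place of 1 for the injections and 2 in place of 4 for TSA and the G9a inhibitors. Calls against IVF lost with the block were *Kdm4a*, *Kdm4b* and *Phf2* in control SCNT and *Kdm4b* and *Kdm4c* in LatA control embryos. Among treated groups they were *Phf2* with TSA and with A366, and *Kdm4b* with A366. The shares of all genes with the block are not given.

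TPM over all chromosomes in place of autosomes moved *Kdm3a*, *Kdm3b*, *Jmjd1c*, *Kdm4c* and *Kdm7a* in IVF to 78.5, 7.54, 15.6, 32.8 and 112 TPM, and *Jmjd1c*, *Kdm4c* and *Kdm4d* in the LatA control to 9.32, 57.1 and 3.85 TPM. Element copies at least 1 kb (1000 bases) from an exon gave 1.71 RPM in *Kdm3a* and 3.09 in *Kdm4d* in control SCNT embryos. The depth limits *Phf2*, *Kdm4b* and *Kdm4d* most, and with 2 libraries in most groups a called difference often rested on 1 library.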
